A study of Rattus norvegicus with 6 samples.

Results

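The NF-κB subunit genes Nfkb1, Nfkb2 and Rela and the feedback inhibitor genes Nfkbia and Tnfaip3 were examined in rat tenocytes, the resident cells of tendon. The 5 genes were chosen by name, by a rule that uses no measured value but was written with earlier results of these data known. All 5 were found among the 19133 genes of the deposited table. Genes are given there as Ensembl identifiers and the reference tables used here hold no Ensembl identifiers, so the symbols of the 5 genes came with the choice of the genes and could not be checked against a table. They are ENSRNOG00000023258 (Nfkb1), ENSRNOG00000019311 (Nfkb2), ENSRNOG00000030888 (Rela), ENSRNOG00000007390 (Nfkbia) and ENSRNOG00000049517 (Tnfaip3).

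The tenocytes were isolated from the Achilles tendons of Sprague–Dawley rats and grown in culture. The control group (n = 3 libraries) received complete medium alone, and the IL−1β group (n = 3 libraries) received the same medium containing 50 ng/mL of the proinflammatory cytokine IL−1β during 24 h. No genetic change or other agent is named for either group. Polyadenylated RNA was sequenced and the level of each gene was given in FPKM, a fragment count adjusted for the length of the gene and the depth of the library. The study's methods describe its data in general as coming from independent experiments. The labels do not say whether the libraries of a group came from separate animals or cultures, so the p-values measure the spread between these libraries, which may be technical. Markers of tenocytes and of other cell types could not be looked up without gene names, and the identity and purity of the cells were therefore not checked here.

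The FPKM values of a gene step in whole multiples of the worth of 1 read, which allowed whole reads to be recovered for all 19133 genes. These numbered between 36507326 and 43099661 per library. The read counts of the 5 genes given here are these recovered reads. Replicates within a group differed by more than sampling noise, where a mean chi-square per gene near 1 would be sampling noise alone. IL−1β library 1 stood apart within its group, with a mean chi-square of 27.3 and 26.2 against IL−1β libraries 2 and 3, which were at 11.4 to each other. Among the control libraries, the pairs with library 1 were at 15.1 each and libraries 2 and 3 were at 11.5.

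NF-κB is a family of transcription factors that act as dimers. Nfkb1 and Nfkb2 encode long precursors that are processed into shorter DNA-binding subunits, whereas Rela encodes the subunit that carries the transcription-activating domain of the canonical dimer. In resting cells, the dimers are held in the cytoplasm by inhibitor proteins, of which IκBα, encoded by Nfkbia, is the best known. When the IL−1 receptor is engaged, IκBα is phosphorylated and degraded, and the dimers enter the nucleus and bind κB sites in DNA. Nfkbia and Tnfaip3, which encodes a ubiquitin-editing enzyme that acts on the signalling complexes upstream, are known targets of NF-κB and form negative feedback loops. mRNA levels, the quantity measured here, do not show the location or the activity of these proteins.

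The start regions of the 5 genes were inspected for κB-type letters, since κB sites are the DNA elements through which the pathway feeds back on its own genes. RefSeq windows of the GRCr8 build, from 250 bases before to 50 bases after an annotated start, were found for 5 of 5 genes, 1 window each. The build used for the deposited values is not given in the sources used here, so the windows are a description of the genes and not of the reads. The narrow pattern searched, on both strands, was GGG, then any 2 bases, then TTTCC. It was found in the windows of Nfkb1, Nfkb2, Nfkbia and Tnfaip3 and not in that of Rela, and in 1.53% of all 33469 windows in the table. The stretches with a match are shown here, 30 bases each on the strand of the gene and 5′ to 3′, with the matches in capitals (a match on the opposite strand is read as its reverse complement).
Nfkb1, chr2:226805440-226805469, minus strand: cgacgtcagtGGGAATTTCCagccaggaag
Nfkb2, chr1:255108344-255108373, plus strand: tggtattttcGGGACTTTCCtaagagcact
Nfkbia, chr6:78597084-78597113, minus strand: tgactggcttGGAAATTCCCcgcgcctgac
Tnfaip3, chr1:15544021-15544050, minus strand: gactGGAAAGTCCCtcGGAAATCCCCctgt

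The matches of Nfkb2, Nfkbia and Tnfaip3 lay before the annotated start and that of Nfkb1 just after it. In Nfkb1, the letters GGGAATTTCC spanned bases 4 to 13 after the start on the strand of the gene. In Nfkbia, the same letters were on the opposite strand, from base -31 to -22. In Nfkb2, the match had AC as its free bases and spanned bases -20 to -11 on the strand of the gene. Tnfaip3 held 2 matches on the opposite strand, 1 with AC as its free bases from -67 to -58 and GGGGATTTCC from -55 to -46. The form with AC was thus shared by Nfkb2 and Tnfaip3, and was found in 0.111% of all windows. A related pattern, GGG, then any 2 bases, then TTCCC, was found in 0 of the 5 windows and in 2.18% of all windows. The wide pattern of GGG, any 5 bases and CC, which contains all of these, was found in 5 of the 5 windows and in 47.3% of all windows, so that it did not set the genes apart. The windows of the 5 genes held between 59.7% (Nfkbia) and 76.7% (Rela) of G and C, against a median of 51.7% over all windows.

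**Figure D1:**
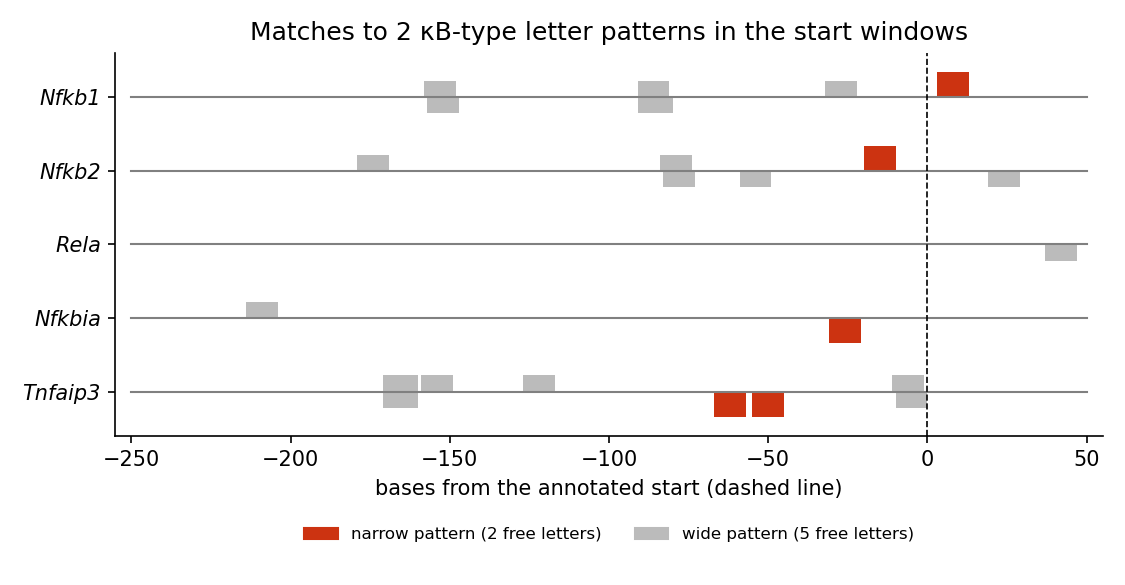
Matches to the narrow pattern with 2 free bases (red) and to the wide pattern with 5 free bases (grey) in the start windows of the 5 genes; the x axis gives bases from the annotated start, and boxes above and below a line are matches on the strand of the gene and on the opposite strand. The narrow pattern is seen in 4 of the 5 windows, near the start in each, and is not seen in the window of Rela.

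The 100 bases before the start of Nfkbia and of Rela are given to show the contrast between a window with and a window without the narrow pattern. They lie at chr6:78597073-78597172 on the minus strand and at chr1:212354236-212354335 on the plus strand. A match is a description and not a bound site, and the lack of a match says only that these letters are not in this window.
Nfkbia: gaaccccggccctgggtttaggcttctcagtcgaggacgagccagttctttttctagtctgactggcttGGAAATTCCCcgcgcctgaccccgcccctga
Rela: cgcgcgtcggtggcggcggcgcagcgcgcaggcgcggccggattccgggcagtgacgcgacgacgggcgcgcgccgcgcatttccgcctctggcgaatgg

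The question of the comparison was which genes differ between normal tenocytes and tenocytes in an inflammatory state. All 5 genes were higher with IL−1β, but by very different amounts. The inhibitor genes changed most, with a log2 fold change of 4.87 for Tnfaip3 and 3.78 for Nfkbia (3.17 and 3.60 with a pseudocount of 1 in place of 0.1), the subunit genes Nfkb1 and Nfkb2 were intermediate at 1.73 and 1.37, and Rela was lowest at 0.28. These values are differences of log2(FPKM + 0.1) between the groups after scaling between libraries. They were tested with limma together with all genes that had 0.5 FPKM or more in 3 libraries or more, 12408 in total. In bulk RNA, a higher level from more expressing cells and from more RNA per cell cannot be told apart.

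As the genes were chosen with earlier results known, the counts that follow are a description. An adjusted p under 0.05 together with an absolute log2 fold change over 1 was reached by 4 of the 5 genes, all higher with IL−1β, where 5.37% of all tested genes were called in this direction. By the adjusted p under 0.05 only, 5 of the 5 genes were called, against 19.3% of all tested genes that were higher. The IL−1β libraries lay above the control libraries without overlap for 5 of the 5 genes, and for 31.2% of all tested genes. With limma's TREAT test, which asks whether a change exceeds 2-fold, 4 of the 5 genes passed, against 2.89% of all tested genes that were higher. The median log2 fold change of the 5 genes was 1.73, and that of all tested genes was 0.001. All 5 genes were tested, but Tnfaip3 passed the filter only through the IL−1β libraries, as its control values were all under 0.5 FPKM, so that it had to differ in order to be tested. Without it, 3 of 4 genes passed both thresholds, 3 of 4 passed TREAT, and the median log2 fold change was 1.55.

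**Figure D2:**
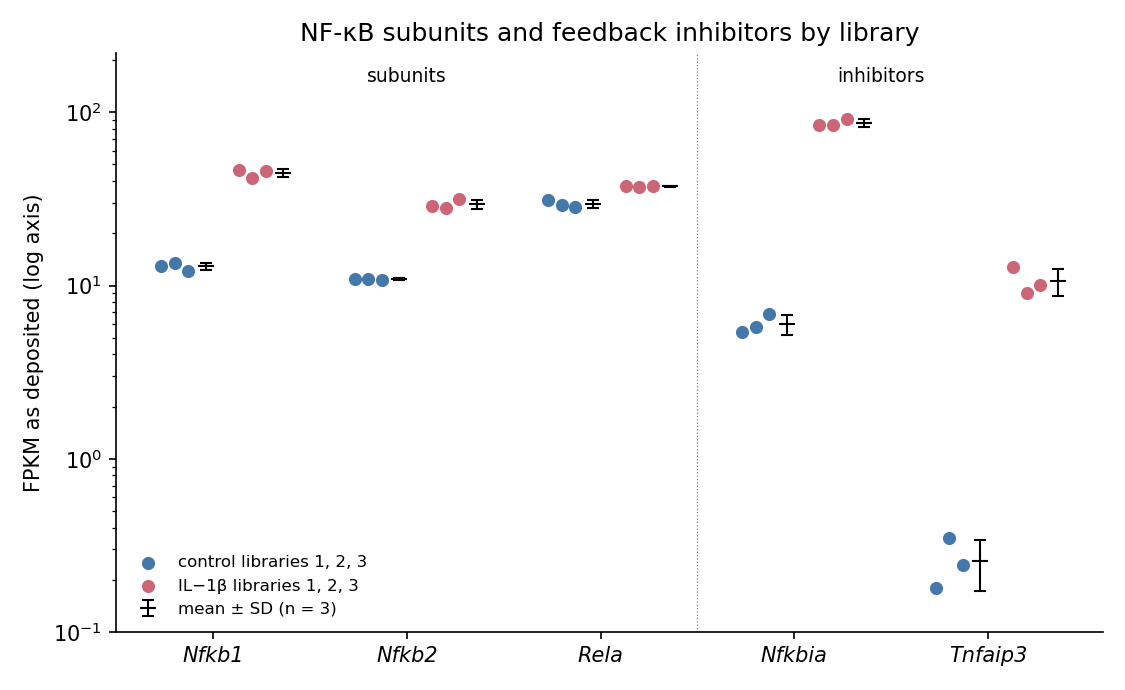
FPKM as deposited (log axis) of the 5 genes in the 3 control (blue) and 3 IL−1β (red) libraries, in the order of replicates 1, 2 and 3, with the mean ± SD of each group. The groups are separate for each gene, and the distance between them is smallest for Rela (29.6 against 37.5 FPKM) and largest for Tnfaip3 (0.257 against 10.6 FPKM).

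Among the subunit genes, Nfkb1 had 13.0, 13.5 and 12.2 FPKM in control libraries 1, 2 and 3 and 46.3, 41.8 and 46.0 FPKM in IL−1β libraries 1, 2 and 3. These levels rest on 1906 to 1968 reads per control library and 6544 to 6989 reads per IL−1β library. The lowest IL−1β library was still 3.11-fold above the highest control library. The mean level was 12.9 ± 0.658 FPKM without and 44.7 ± 2.49 FPKM with IL−1β (SD, n = 3 each). The log2 fold change of Nfkb1 was 1.73 (standard error 0.07, 95% confidence interval 1.58 to 1.88), with an adjusted p of 2.1e-06 from limma and of 2.8e-04 from TREAT. Nfkb1 thus rose by more than 2-fold with IL−1β, and its spread between replicates was a small part of this difference.

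Nfkb2, which encodes the precursor of the noncanonical branch of the pathway, had 10.9, 10.9 and 10.7 FPKM in control libraries 1, 2 and 3. In IL−1β libraries 1, 2 and 3 it had 28.9, 28.2 and 31.5 FPKM. The control libraries were nearly identical, with an SD of 0.120 FPKM around the mean of 10.9, whereas the IL−1β libraries varied by 1.73 FPKM (SD) around 29.5 FPKM (n = 3 each). The reads behind these levels numbered 1228 to 1378 per control library and 3294 to 3740 per IL−1β library. The log2 fold change was 1.37 (standard error 0.05, 95% confidence interval 1.25 to 1.50), with an adjusted p of 2.4e-06 from limma and of 0.00362 from TREAT, so that Nfkb2 also rose by more than 2-fold.

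Rela stood apart from the other subunit genes. It was the most highly expressed of the 5 genes in the control group, and its difference between the groups was the smallest. It had 31.3, 29.0 and 28.3 FPKM in control libraries 1, 2 and 3 and 37.7, 37.2 and 37.4 FPKM in IL−1β libraries 1, 2 and 3. The groups did not overlap, and the closest pair of libraries differed by 1.19-fold and the most distant pair by 1.33-fold. The mean was 29.6 ± 1.59 FPKM without and 37.5 ± 0.249 FPKM with IL−1β (SD, n = 3 each), on 2597 to 3933 reads per library. The log2 fold change was 0.28 (standard error 0.06, 95% confidence interval 0.15 to 0.42), with an adjusted p of 0.00596 from limma. The interval of this difference lies far below a 2-fold change, and Rela did not pass the threshold on the fold change. Its size depends in part on the scaling between libraries, and was 0.34 without any scaling of the FPKM values and 0.25 with quantile normalization, where the median of all tested genes moved to 0.058 and -0.050. The adjusted p stayed under 0.05 in both.

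Of the inhibitor genes, Nfkbia showed the highest level after stimulation. It had 5.35, 5.76 and 6.87 FPKM in control libraries 1, 2 and 3, on 324 to 450 reads. In IL−1β libraries 1, 2 and 3 it had 84.8, 84.3 and 91.6 FPKM, on 4933 to 5702 reads. The ratio between single libraries of the groups ranged from 12.3-fold to 17.1-fold, and no library of one group approached the other. The mean was 5.995 ± 0.786 FPKM without and 86.9 ± 4.10 FPKM with IL−1β (SD, n = 3 each). The log2 fold change was 3.78 (standard error 0.09, 95% confidence interval 3.58 to 3.99; adjusted p = 2.3e-07 from limma and 1.1e-06 from TREAT), which ranked 83 among the 12408 tested genes when sorted from the largest rise. Control library 3 was the highest of its group, and without it the log2 fold change was 3.88.

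Tnfaip3 had by far the lowest level of the 5 genes in the control group and, with the pseudocount of 0.1, the largest fold change. It had 0.180, 0.346 and 0.244 FPKM in control libraries 1, 2 and 3, on 17, 31 and 25 reads. The 95% Poisson intervals of these values, which cover counting error only, ran from 0.105 to 0.288, from 0.235 to 0.491 and from 0.158 to 0.361 FPKM, so that the control libraries overlapped within counting error. All of them were above the value of 3 reads on this gene, which was 0.0293 to 0.0335 FPKM in these libraries. In IL−1β libraries 1, 2 and 3, Tnfaip3 had 12.7, 9.06 and 10.1 FPKM, on 1157, 958 and 909 reads. Library 1, which stood apart from its replicates across genes, was the highest of the IL−1β group, and the ratio between single libraries of the groups ranged from 26.2-fold to 70.8-fold.

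The log2 fold change of Tnfaip3 was 4.87 (standard error 0.21, 95% confidence interval 4.38 to 5.36; adjusted p = 3.5e-06 from limma and 1.8e-05 from TREAT). As the filter admitted Tnfaip3 only through the IL−1β libraries, the fit without a filter bears on it more directly, and gave the same log2 fold change with an adjusted p of 1.89e-05 from limma. Without IL−1β library 1 it was 4.73, and with replicates 2 and 3 of both groups only it was 4.57. The size of this rise is less certain than its direction, since the control values are of the order of the pseudocount. It was 3.17 with a pseudocount of 1, where it fell below the 3.60 of Nfkbia, 5.29 with a pseudocount of 0.01 and 5.32 (standard error 0.43) with limma-voom applied to reads. That fit gave 1.74 for Nfkb1, 1.38 for Nfkb2, 0.29 for Rela and 3.80 for Nfkbia, these 4 within 1 standard error of the values above.

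**Figure D3:**
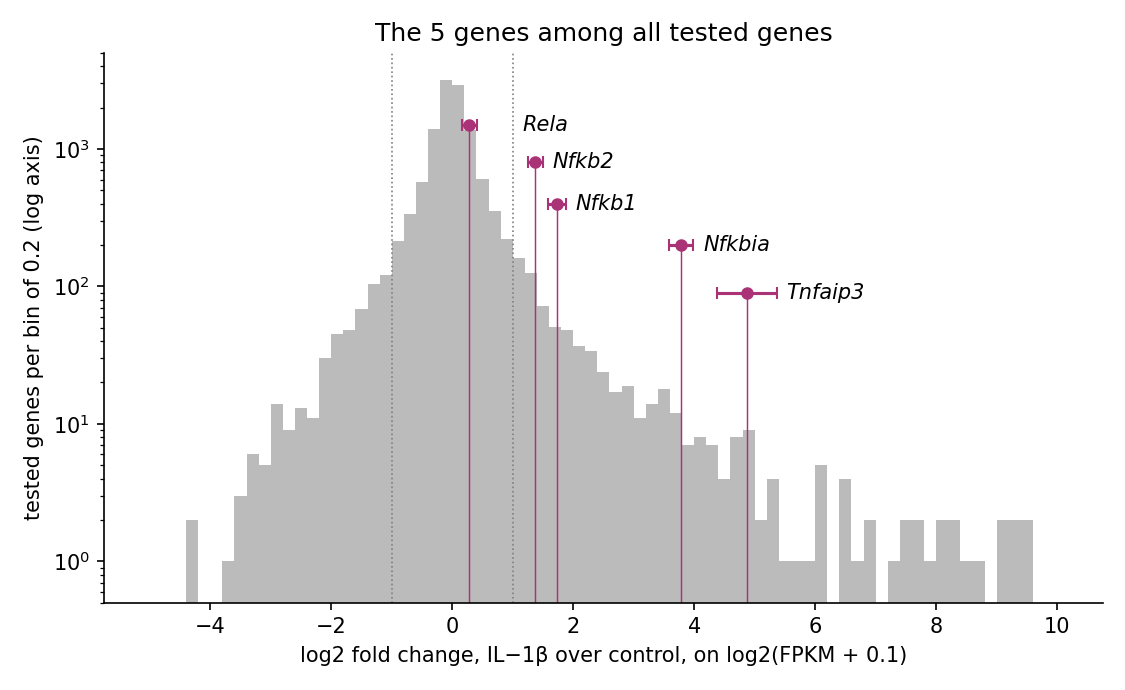
Histogram of the log2 fold changes (IL−1β over control) of all 12408 tested genes on a log count axis, with the 5 genes as points with 95% confidence intervals (their height carries no value) and dotted lines at a log2 fold change of 1 in either direction. Rela at 0.28 lies within the bulk of the genes, and Nfkbia at 3.78 and Tnfaip3 at 4.87 lie in the upper tail.

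The order of the levels, compared per length in FPKM, was different in the groups. In the control group it was Rela (29.6 FPKM), Nfkb1 (12.9), Nfkb2 (10.9), Nfkbia (5.995) and Tnfaip3 (0.257), and the ranges of neighbouring genes did not overlap. In the IL−1β group it was Nfkbia (86.9 FPKM), Nfkb1 (44.7), Rela (37.5), Nfkb2 (29.5) and Tnfaip3 (10.6), again without overlap between neighbours. Nfkbia thus moved from below all subunit genes to above them, and Nfkb1 from below Rela to above it. Among all tested genes, the level of Nfkbia was higher than that of 42.1% without and of 93.0% with IL−1β. For Rela these shares were 81.0% and 83.9%, for Nfkb1 62.7% and 86.5%, and for Nfkb2 58.4% and 79.9%. No such share is given for Tnfaip3, whose control values lay under the filter that defines the tested genes.

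To compare the genes with each other, the ratio of their FPKM values was taken within each library, which needs no scaling between libraries. The log2 ratios and their tests, here and below, instead used the scaled values with the pseudocount of 0.1 added. Nfkbia had 0.171, 0.198 and 0.243 times the FPKM of Rela in control libraries 1, 2 and 3 and 2.25, 2.26 and 2.45 times in IL−1β libraries 1, 2 and 3. The log2 ratio rose by 3.50, from -2.29 ± 0.25 to 1.21 ± 0.07 (SD, n = 3 each; exact two-sided permutation p = 0.10, adjusted p = 0.10 over 10 pairs). A p of 0.10 is the smallest that 3 libraries against 3 can give, so this test cannot pass 0.05, and the statement rests on the groups' ranges. The ratio turned over from well below 1 to above 2, the mRNA level of the inhibitor then exceeding that of the subunit.

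Nfkb1 had 0.415, 0.464 and 0.430 times the FPKM of Rela in control libraries 1, 2 and 3. In IL−1β libraries 1, 2 and 3 it had 1.23, 1.12 and 1.23 times, a difference of 1.44 on the log2 scale. Nfkb2 had 0.349, 0.376 and 0.379 times the FPKM of Rela in the control libraries and 0.765, 0.757 and 0.841 times in the IL−1β libraries, a difference of 1.09. Nfkb1 and Nfkb2 thus rose relative to Rela, and Nfkb2 remained below it in all libraries. Between Nfkb1 and Nfkb2 the difference was smallest, with 1.13 to 1.23 times as much Nfkb1 in the control libraries and 1.46 to 1.60 times in the IL−1β libraries (0.36 on the log2 scale). All 10 pairs had groups that did not overlap, and the exact permutation p of each was 0.10, the smallest possible.

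The inhibitor genes also differed from each other. Tnfaip3 had 0.0336, 0.0601 and 0.0356 times the FPKM of Nfkbia in control libraries 1, 2 and 3 and 0.150, 0.108 and 0.110 times in IL−1β libraries 1, 2 and 3. With the pseudocount of 0.1 the log2 ratio was 1.09 higher with IL−1β, but with a pseudocount of 1 it was lower, at -0.44, so that its direction on that scale rests on the low control values of Tnfaip3. The ratios as given, which use no pseudocount, were higher in each IL−1β library.

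**Figure D4:**
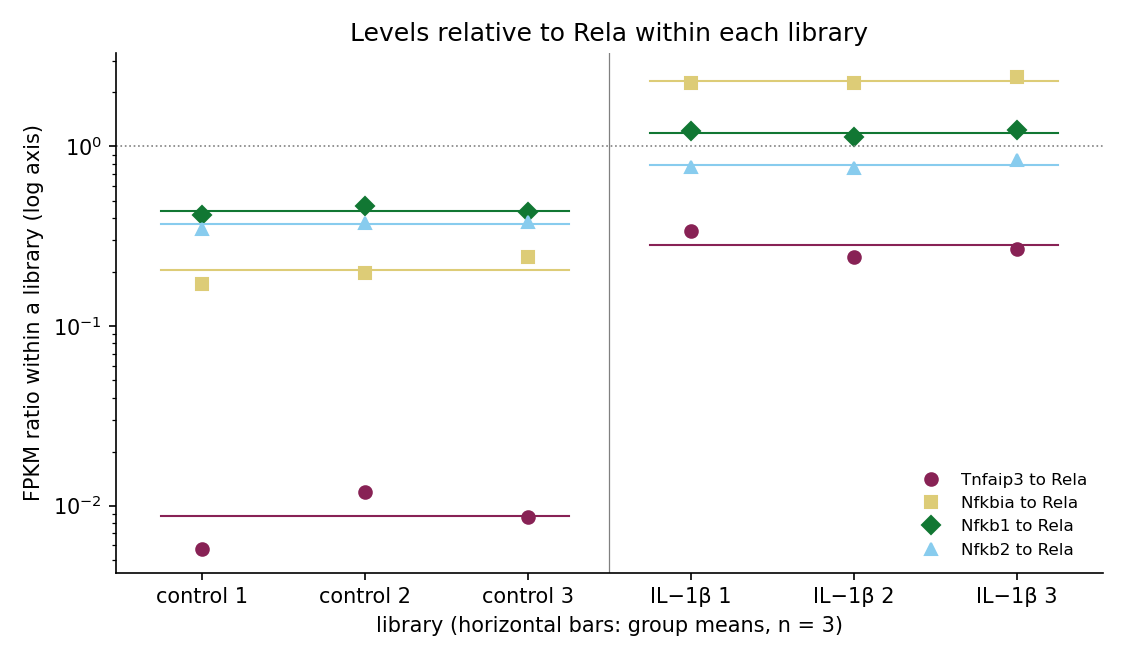
FPKM of Tnfaip3, Nfkbia, Nfkb1 and Nfkb2 divided by that of Rela in the same library (log axis), for the 3 control and the 3 IL−1β libraries, with group means as horizontal bars and a dotted line where a gene equals Rela. Nfkbia and Nfkb1 pass from below to above the line, whereas Nfkb2 and Tnfaip3 move towards it and stay below.

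The levels of the 5 genes summed to 59.6 ± 1.26 FPKM without and 209.2 ± 8.06 FPKM with IL−1β (SD, n = 3 each). Rela held 49.6% ± 1.66 of this sum in unstimulated cells and 17.9% ± 0.643 in stimulated cells. The share of Nfkb1 overlapped between the groups, at 21.6% ± 0.904 and 21.4% ± 0.589, and the share of Nfkb2 was 18.2% ± 0.222 and 14.1% ± 0.407. The inhibitor genes together held 9.10% to 12.2% in the control libraries and 46.3% to 47.0% in the IL−1β libraries. Put as a ratio, inhibitor mRNA amounted to 0.118 ± 0.0197 of subunit mRNA in unstimulated cells and to 0.873 ± 0.0112 in stimulated cells. The IL−1β libraries were closely alike in this ratio (0.864 to 0.886), although single genes such as Tnfaip3 varied more between them.

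**Figure D5:**
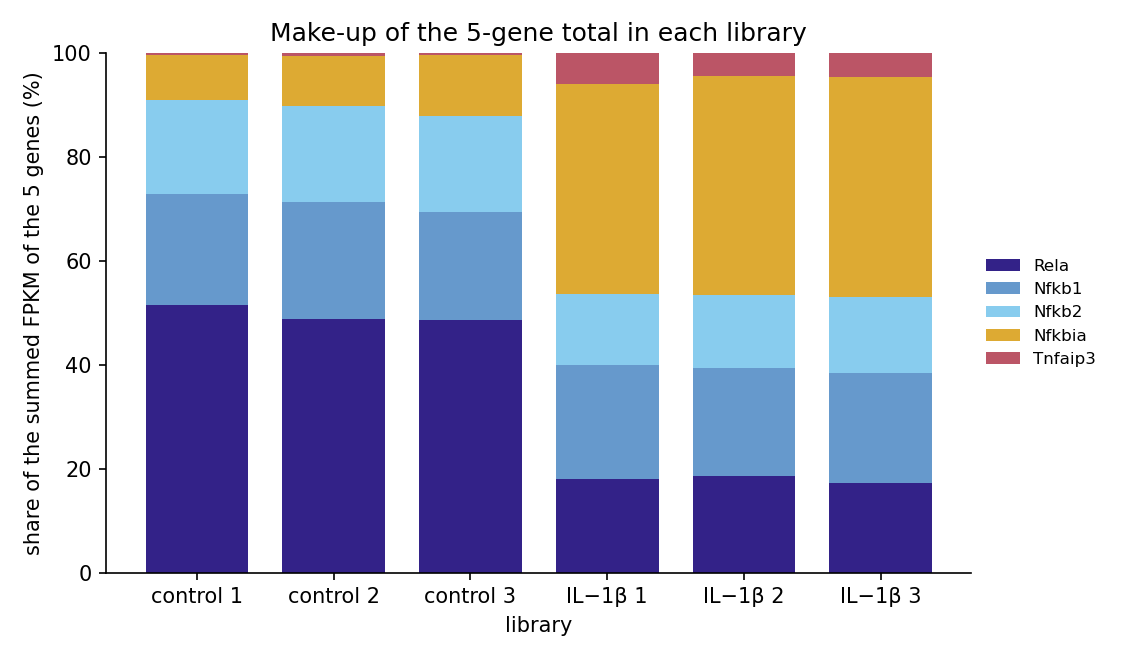
Share of each gene in the summed FPKM of the 5 genes, in percent, for each of the 6 libraries. Rela takes between 48.5% and 51.5% of each control library, and Nfkbia between 40.3% and 42.3% of each IL−1β library.

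The spread between replicates was compared with that of all tested genes, whose median SD of the log2 values was 0.085 (control) and 0.102 (IL−1β). Nfkb1 (0.081 and 0.091) was near these values, and Nfkb2 (0.029 and 0.075) was below them. Rela was at 0.092 and 0.029, and Nfkbia at 0.170 and 0.056. Tnfaip3 had the largest spread of the 5 genes, 0.332 and 0.265, and it also had the fewest reads (17 to 31 per control library). Its IL−1β libraries had 909 to 1157 reads. There the 95% Poisson interval of library 1 (12.0 to 13.5 FPKM) lay above those of library 2 (8.50 to 9.66) and library 3 (9.45 to 10.8). The part of counting error in this spread was not tested.

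The genes whose pattern was most like that of Nfkbia were looked for by Pearson's r of the log2 values over the 6 libraries. As the libraries form separate groups, r mostly reflects the step between them, and it is given as a description. The other genes of the 5 had r of 0.996 (Nfkb2), 0.994 (Tnfaip3), 0.993 (Nfkb1) and 0.915 (Rela). Outside the 5, ENSRNOG00000017523 came closest (r = 0.99966), with 6.44 ± 0.304 FPKM without and 12.6 ± 0.366 FPKM with IL−1β (SD, n = 3 each). ENSRNOG00000001214 followed (r = 0.99965), with 17.2 ± 0.678 and 63.6 ± 2.28 FPKM. Of all tested genes outside the 5, 379 (3.06%) had r over 0.99. The files do not pair these identifiers with names.

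The other genes of the pathway, among them further subunits and inhibitors, the kinases that phosphorylate the inhibitors and the adaptors of the IL−1 receptor, could not be found without names and were not analysed here.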

How the data were processed

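RNA of 3 control and 3 IL−1β libraries of rat tenocytes was sequenced. The authors deposited FPKM values, 1 column per library, and the submitters' processing notes name HISAT2 and featureCounts. Version, genome build, annotation and strand setting are not given in the sources used here. How reads of overlapping genes were assigned is therefore not known. The 5 genes, the lists and the settings were chosen with earlier results of these data known.

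Reads were recovered from the FPKM steps with Python 3.11.15 (numpy 2.4.6, tolerance of 0.005 read). On simulated data, 99.22% of 5486 genes with at least 20 reads were recovered exactly. Libraries were scaled with median-of-ratios factors (0.969 to 1.032), a pseudocount of 0.1 was added, and log2 values of the whole table were fitted with limma 3.58.1 in R 4.3.3 (two-sided, intensity trend, no block, Benjamini-Hochberg adjustment over 12408 genes). On simulated reads with a log2 change of 2, 99.5% of 198 changed genes were called, with 3 false calls. The simulation gave every gene the same dispersion (spread beyond sampling noise) of 0.01, and no library stood apart in it. It checks the procedure and does not give the rate of false calls in these data. A gene was called where the adjusted p was under 0.05 and the log2 fold change over 1 in size, the thresholds of the study, whose own test was on read counts. Log2 ratios between genes, from scaled values with the pseudocount, were tested by exact permutation (scipy 1.17.1). The genes named were all 5, and the 2 genes most like Nfkbia by Pearson's r. Gene lists for the pathway and for cell types were set up by symbol, and no list could be applied. Motifs were searched in RefSeq windows (GRCr8). Figures were drawn with matplotlib 3.10.9.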

Additional observations from a re-analysis of the deposited data

How the results depend on the processing

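The fold changes and counts were recomputed in 17 other ways, with a pseudocount of 1 or 0.01, without a filter or with one of 1 FPKM, with the deposited scaling, quantile normalization, limma without a trend, TREAT, limma-voom on recovered reads, the replicate block, each of the 6 libraries left out in turn, and replicates 2 and 3 only, the last added with the data in view because library 1 of either group differed most from its replicates. Without IL−1β library 1 the log2 fold changes were 1.69 (Nfkb1), 1.38 (Nfkb2), 0.27 (Rela), 3.79 (Nfkbia) and 4.73 (Tnfaip3). The within-library ratios were recomputed in 9 of these, with both pseudocounts, with each library left out and with replicates 2 and 3 only. In all 17, 4 of the 5 genes were called and Rela was not, and each gene kept its direction. Over the fits that left out 1 library, the log2 fold change was 1.68 to 1.78 for Nfkb1, 1.33 to 1.41 for Nfkb2, 0.25 to 0.33 for Rela, 3.71 to 3.88 for Nfkbia and 4.72 to 5.05 for Tnfaip3. Leaving TREAT aside, the adjusted p of Rela from limma ranged from 0.0015 to 0.0289 over the alternatives.

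The within-library ratio of Tnfaip3 to Nfkbia was the 1 result among these fits that reversed, to -0.44 with a pseudocount of 1, which shrinks changes at low levels. The count of all genes past both thresholds was 1078, and 697 with a pseudocount of 1 (231 lower) and 520 with TREAT (358 higher and 162 lower), which tests against a 2-fold change. Why fewer genes passed with the pseudocount of 1 was not tested. The share of called genes that were higher was 61.8%, and ranged from 55.8% with quantile normalization (607 higher, 481 lower) over 65.5% with the deposited scaling (713 higher, 375 lower) to 68.8% with TREAT. Replicate numbers are shared between the groups, and the deviations of same-numbered libraries correlated at 0.0944, 0.0206 and 0.0338. Without a reference value for libraries of unlike origin, these correlations cannot decide whether same-numbered libraries share an animal, culture or batch. The labels do not say so either. With the replicate block, 1080 genes and 4 of the 5 genes were called. Tnfaip3 had 17 to 31 reads per library in the control group, and the effect of depth on its values was not tested.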
